A study of Homo sapiens with 6 samples.

Results

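DNA replication and nucleotide supply genes were examined in SK-Mel-147 melanoma cells in which the microRNA miR-638 had been raised or inhibited. The set held 40 genes, listed by symbol with no threshold on measured values, although earlier results of these data were known: the factors that license replication origins, start the replicative helicase, prime and extend the new strands, load the sliding clamp, coat single-stranded DNA, join Okazaki fragments and make deoxynucleotides. The array annotation paired 62 probes with these 40 genes, out of 20046 named genes and 30112 probes with 1 gene symbol. All 40 had at least 1 probe that passed the filter on dim probes, 58 of the 62 probes passed, and 15 genes had 2 or more kept probes.

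Total RNA was taken 48 h after transfection and hybridised to 6 Illumina HumanHT-12 v4 arrays, 2 per group. SK-Mel-147 is a human melanoma cell line, and all 3 groups came from this line: cells labelled mock transfected, cells given a miR-638 mimic (a synthetic double-stranded form of the microRNA), and cells given antagomiR-638 (an antisense inhibitor that binds the microRNA). The titles call the first group mock transfected, whereas the series design speaks of a non-targeting control and the column headers read NT, so whether these cells had received a control oligonucleotide cannot be told apart here. The labels number the 2 arrays of a group as replicates without saying that they came from separate cultures, so the p-values measure the spread between these arrays, which may be technical.

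Before a cell copies its DNA, the origin recognition complex, CDC6 and CDT1 load the ring-shaped MCM2 to MCM7 helicase onto origins, and geminin (GMNN) blocks a further round of loading. The kinase CDC7, MCM10 and the GINS complex then turn the loaded ring into the active helicase. DNA polymerase alpha with its primase starts each strand, polymerases epsilon and delta extend the leading and lagging strands, PCNA and its loader, the RFC complex, hold them on the template, and FEN1 and LIG1 finish Okazaki fragments. Many of these genes are transcribed at the G1 to S boundary by E2F factors, and their transcripts are used as markers of proliferating cells.

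The sequence that was raised or inhibited is that of mature miR-638, which RefSeq places at chr19:10718419-10718443 on the plus strand of GRCh38.p14. It is shown with its seed, bases 2 to 8 and the main determinant of target choice, in capitals.
miR-638: aGGGAUCGcgggcggguggcggccu

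Because E2F factors act on many of these genes, the 250 bases before each transcription start were read from the RefSeq promoter windows of GRCh38.p14. These windows held 34 of the 40 genes. MCM4, MCM5, GINS4, POLD3, RPA2 and RPA3 had no window and are absent from the counts of matches below. An E2F octamer was searched on both strands as TTTCGCGC, TTTGGCGC, TTTCCCGC or TTTGCCGC. It was present in 15 of the 34 genes (44.1%), against 531 of 9309 genes tested on the arrays that had a window (5.7%). For genes with several windows, a match in any of them counted. The stretches below show it in 4 genes that fell more than 2-fold in the fit with antagomiR-638 and in 3 that were not called. Each reads along the gene's own strand, and the capitals mark the reverse complement of an octamer, which lies on the other strand. The stretches lie at chr12:132687343-132687371 (POLE, minus strand), chr16:88803743-88803772 (CDT1, plus), chr13:33818083-33818112 (RFC3, plus), chr16:85688967-85688996 (GINS2, minus), chr20:5126663-5126692 (PCNA, minus), chr18:657603-657632 (TYMS, plus) and chrX:24693770-24693799 (POLA1, plus).
POLE: tgggtgggagcGCGCCAAAtttctcccct
CDT1: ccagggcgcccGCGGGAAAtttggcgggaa
RFC3: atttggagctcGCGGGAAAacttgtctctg
GINS2: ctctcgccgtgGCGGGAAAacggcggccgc
PCNA: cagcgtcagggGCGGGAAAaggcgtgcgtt
TYMS: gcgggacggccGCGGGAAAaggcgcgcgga
POLA1: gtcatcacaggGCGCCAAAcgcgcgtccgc

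The octamer was found in both called and uncalled genes. Of the 15 genes with it, 11 were lower in antagomiR-638 than in mock cells, and 4 (POLA1, PCNA, TYMS and DUT) were not called. Of the 19 without it, 12 were lower and 7 were not called. The median log2 difference was -0.66 with the octamer and -0.77 without it. The CCAAT box, the core of the NF-Y site, was in 19 of the 34 genes (55.9%, against 42.2% of the tested genes). The cell cycle element CHR, read as TTTGAA or TTCGAA, was in 3 (8.8%, against 14% of the tested genes). A match describes the letters only, and was not a measurement of binding.

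Between 41.8% and 44.1% of the 47319 probes had a detection p-value under 0.05, and log2 signals correlated at 0.994 to 0.995 between arrays of 1 group and at 0.976 to 0.988 between groups. Of 10 melanocyte markers with a named probe, SOX10 and MITF passed the filter, SOX10 at deposited signals of 1046.3 to 1300.0 and MITF at 15.507 to 43.963, whereas PMEL, TYR, TYRP1 and MLANA did not. LUM, 1 of 5 fibroblast markers with a probe, passed as well, as did 1 of 5 keratinocyte and 1 of 4 leukocyte markers. Of 4 endothelial markers with a probe, 0 passed. The deposited signals had already been quantile-normalised, so every array had the same distribution and a shift of all transcripts in 1 direction would not be visible. Levels are given below as deposited signals in intensity units, which compare arrays within 1 probe and not 1 gene with another. Differences are on the log2 scale with the standard error (SE) of a limma fit over the 6 arrays, and genes with an adjusted p of at most 0.01 count as called.

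AntagomiR-638 cells had lower signals than mock cells for most replication genes, from the loading of the helicase to the joining of Okazaki fragments. Of the 40 genes, 26 were called lower and 0 higher, where 4.78% of all 11501 genes tested were called lower and 5.83% higher. Without adjustment, 34 had a p under 0.05 on the lower side and 0 on the higher side. Over all 11501 genes, 2074 had such a p on the lower side and 2343 on the higher side. The median log2 difference of the 40 was -0.71, against 0.0128 over all genes, and 14 of the called genes fell at least 2-fold, as did 172 of all genes (1.5%). In 35 of the 40 both antagomiR-638 arrays lay below both mock arrays (31.4% of all genes did), and in 2 both lay above (34.6% of all genes). In RNA from whole cultures, fewer cells in S phase and less of each transcript per cell cannot be told apart.

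Both antagomiR-638 arrays showed the same shift. Set against the mean of the mock arrays, the median of the 40 log2 differences was -0.73 on the first and -0.74 on the second, and 35 and 36 of the genes lay below both mock arrays. On the miR-638 arrays the same medians were 0.03 and 0.01. The number of called genes depended on single arrays, each such fit having fewer residual degrees of freedom. It was 17 without mock replicate 1, 13 without mock replicate 2, 10 without antagomiR-638 replicate 1 and 9 without antagomiR-638 replicate 2, and 24 and 25 without a miR-638 array. In these 6 fits all calls were lower, and the median of the 40 lay between -0.76 and -0.70. MCM2, MCM5, GINS3, POLD3, POLE, RFC3 and TK1 were called lower in each of the 6.

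**Figure D1:**
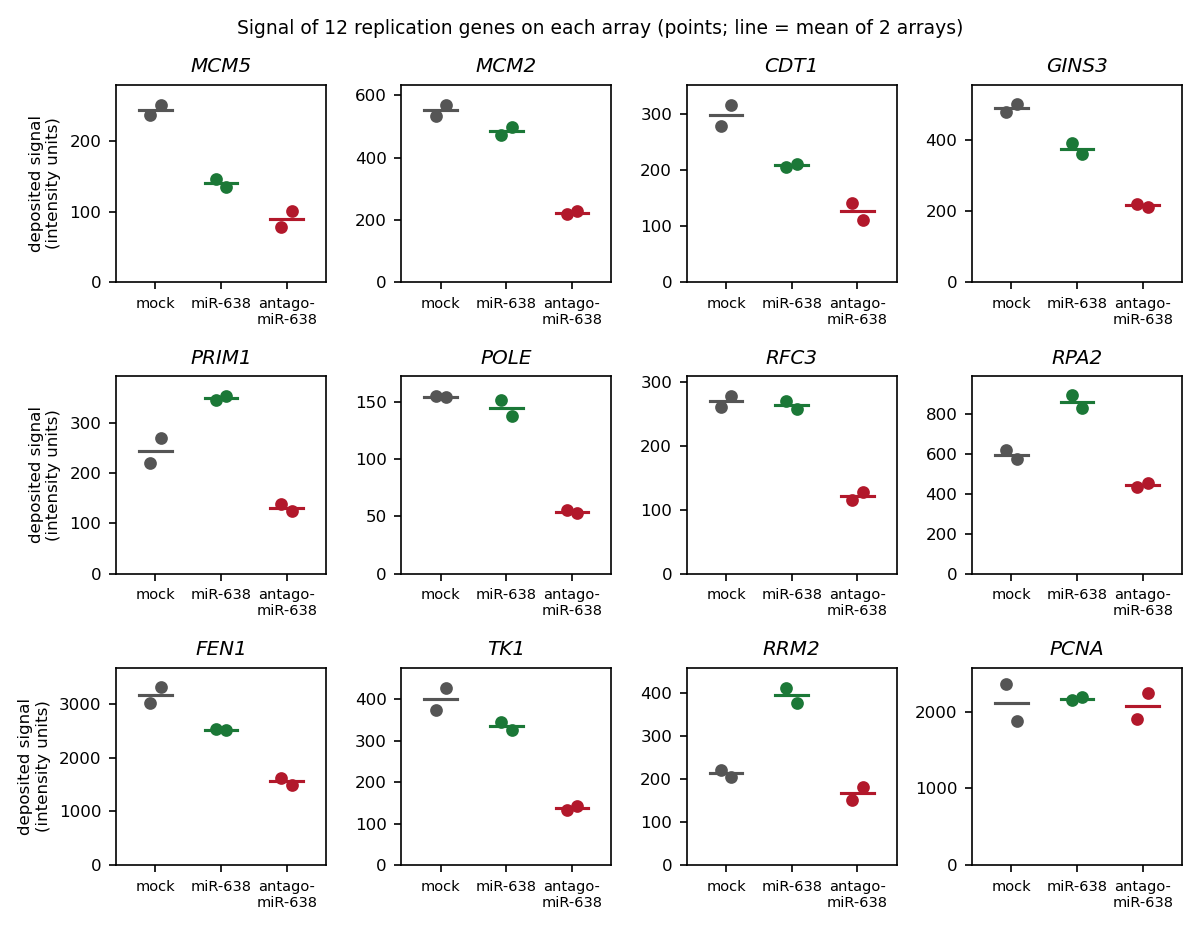
Deposited signal in intensity units (vertical axis, from 0, with its own scale for each gene) of 12 replication genes on each of the 6 arrays; points are arrays, lines the mean of the 2 arrays of a group. MCM2, POLE, RFC3 and TK1 are lowest on both antagomiR-638 arrays, RRM2 and PRIM1 are highest on both miR-638 arrays, and the groups of PCNA overlap.

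The licensing genes fell together: 8 of the 9 were called lower, with a median of -1.01. MCM5, a subunit of the helicase ring, gave 237.7 and 251.2 in the mock arrays, 135 on 1 of the miR-638 arrays with a mean of 141 over both, and 78.768 and 100.5 in the antagomiR-638 arrays. The 3 groups did not overlap, and the difference between antagomiR-638 and mock was -1.31 ± 0.13 (adjusted p = 0.000303). MCM2, a neighbouring subunit, read 534 and 570 in mock cells, 472.4 and 497.4 with miR-638 and 218.2 and 227.1 with antagomiR-638. Here the antagomiR-638 arrays stood well below the other 4, by -1.25 ± 0.11 (adjusted p = 0.000173) against mock. CDT1, which brings the ring to the origin, read 278.1 and 316 in mock, 205.2 and 211.3 with miR-638 and 141.4 and 111.3 with antagomiR-638, a difference of -1.14 ± 0.14 (adjusted p = 0.000672). Geminin, the inhibitor of CDT1, moved the same way as CDT1 (-1.01 ± 0.12, adjusted p = 0.000613), from 706.8 and 709.2 in mock to 356.2 and 329.4, both antagomiR-638 arrays lying below all 4 others.

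The other ring subunits were called lower as well, and for MCM7 this depended on the probe. MCM4 read 492.1 and 550.2 in mock, 542.1 and 387.7 with miR-638 and 214.8 and 245.1 with antagomiR-638 (-1.13 ± 0.16, adjusted p = 0.00172), and its second probe gave -0.98. MCM3 read 1778.3 and 1739.1 in mock, 1631.4 and 1412.2 with miR-638 and 1130.3 and 1076.9 with antagomiR-638 and differed by -0.66 ± 0.12 (adjusted p = 0.00511) on its brighter probe and -0.91 on the other. MCM6 differed by -0.78 ± 0.12 (adjusted p = 0.0026). All of these subunits had antagomiR-638 arrays below the mock arrays without overlap. MCM7 read 1834.9 and 1775.3 in mock, 1954.4 and 1755.8 with miR-638 and 1121.1 and 1170.2 with antagomiR-638, and differed by -0.65 ± 0.12 (adjusted p = 0.00484), while a second, dim kept probe, at 18.315 and 4.685 in mock, gave -0.46 and was not called. CDC6, the loader itself, was near background, with 15.092 and 19.117 in mock, 16.776 and 19.741 with miR-638 and 20.383 and 5.379 with antagomiR-638. It was detected on 1 of the 2 antagomiR-638 arrays, the groups overlapped, and the difference was -0.21 ± 0.20 (adjusted p = 0.495). Among the 8 called licensing genes, CDT1 and GMNN lost the call without antagomiR-638 replicate 2 (adjusted p = 0.0105 and 0.0111), and MCM3, MCM4, MCM6 and MCM7 lost it without either antagomiR-638 array or mock replicate 2 (without mock replicate 1 as well, except MCM4), with adjusted p up to 0.0487.

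Among the 6 genes that activate the helicase, 4 were called lower. GINS3 and GINS2 encode subunits of GINS, which stays with the moving helicase. GINS3 read 478 and 500.4 in mock, 390.1 and 360 with miR-638 and 220.7 and 211.3 with antagomiR-638, a fall with no overlap between any of the groups (-1.12 ± 0.11, adjusted p = 0.000304). GINS2 read 498.9 and 432.2 in mock, 411.3 and 349.9 with miR-638 and 221.1 and 208.7 with antagomiR-638 and differed by -1.06 ± 0.13 (adjusted p = 0.000773). MCM10, which is needed to start unwinding, differed by -0.87 ± 0.11 (adjusted p = 0.00104), and the second of its probes by -1.12. CDC7, the catalytic subunit of the kinase that phosphorylates the loaded ring, had a smaller difference of -0.60 ± 0.11 (adjusted p = 0.00654), and this call was lost with any 1 of the 6 arrays left out, with adjusted p up to 0.0544. MCM10 lost it without mock replicate 2 or either antagomiR-638 array (adjusted p up to 0.0155), and GINS2 without either antagomiR-638 array (up to 0.0137).

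The other 2 GINS subunits were close to background. GINS4 read 19.105 and 14.983 in mock, 22.09 and 16.63 with miR-638 and -1.636 and 7.417 with antagomiR-638, 1 of these last being detected, and gave -0.62 ± 0.15 (adjusted p = 0.0177). GINS1 read 10.536 and 5.632 in mock, 8.15 and 8.521 with miR-638 and 11.899 and 16.451 with antagomiR-638. Its antagomiR-638 arrays lay above the mock arrays, but the difference of 0.30 ± 0.13 (adjusted p = 0.145) was not called. Differences of such dim probes are drawn toward 0 by the offset of the background model, and GINS1 and GINS4 were each detected on 5 of the 6 arrays.

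All 5 genes of the set that encode subunits of polymerases delta and epsilon were called lower, with a median of -1.14. POLD4, a delta subunit outside the set, was called higher and is described below. POLE, the catalytic subunit of the leading-strand polymerase, read 154.5 and 154.4 in mock, 151.4 and 137.1 with miR-638 and 55.106 and 53.029 with antagomiR-638, the last lying below the other 4 arrays by a fitted difference from mock of -1.28 ± 0.11 (adjusted p = 0.000164). POLE2, its second subunit, read 214.1 and 186 in mock, 187.2 and 186.5 with miR-638 and 74.649 and 89.152 with antagomiR-638, with mock and miR-638 close together and antagomiR-638 apart (-1.14 ± 0.13, adjusted p = 0.000483). POLD1, the catalytic subunit of polymerase delta, differed by -1.14 ± 0.14 (adjusted p = 0.000865), and POLD3, an accessory subunit, by -1.10 ± 0.13 (adjusted p = 0.000569). POLD2, which links the catalytic subunit to the others, read 348.9 and 327 in mock, 384.8 and 329.2 with miR-638 and 199.3 and 218.3 with antagomiR-638 (-0.66 ± 0.13, adjusted p = 0.00659). Its second kept probe was dim, at 21.199 and 12.674 in mock against 12.693 and 11.105, and gave -0.23. Without antagomiR-638 replicate 1, POLD1 and POLE2 lost the call (adjusted p = 0.0163 and 0.0104), and POLD2 lost it without any 1 of the mock or antagomiR-638 arrays (up to 0.0652).

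The complex that starts strands was split, with 2 of 4 genes called. PRIM1, the catalytic primase subunit, read 220.7 and 270.8 in mock, 346.9 and 353.9 with miR-638 and 137.9 and 124.6 with antagomiR-638. The miR-638 arrays were above and the antagomiR-638 arrays below mock, the latter differing by -0.83 ± 0.13 (adjusted p = 0.00269), and the second PRIM1 probe gave -1.14. POLA2, the regulatory subunit of polymerase alpha, read 270.4 and 307.6 in mock, 385.8 and 331.7 with miR-638 and 181.5 and 171.7 with antagomiR-638 (-0.66 ± 0.13, adjusted p = 0.00693). PRIM1 lost its call without mock replicate 2 or either antagomiR-638 array (adjusted p up to 0.0319), and POLA2 without any array except miR-638 replicate 2 (up to 0.0558). POLA1, the catalytic subunit, read 213.2 and 287.9 in mock, 267.6 and 220.1 with miR-638 and 176.2 and 148.3 with antagomiR-638. Its antagomiR-638 arrays were the lowest, but the mock arrays differed widely and -0.57 ± 0.17 (adjusted p = 0.0385) did not pass the threshold. A second POLA1 probe, near background, gave -0.07. PRIM2, the large primase subunit, was dim at 9.358 and 6.952 in mock, 17.596 and 20.315 with miR-638 and 12.023 and 9.92 with antagomiR-638 (0.14 ± 0.12, adjusted p = 0.43).

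PCNA was not called, whereas 3 of the 5 genes of its loader were lower. PCNA, the sliding clamp, read 2359 and 1872.1 in mock, 2145 and 2186.9 with miR-638 and 1906.9 and 2244 with antagomiR-638. The groups overlapped, and the difference of -0.02 ± 0.14 (adjusted p = 0.928) had a 95% interval of -0.35 to 0.30, which stops short of a 2-fold fall. RFC3 and RFC5, small subunits of the loader, differed from mock by -1.06 ± 0.12 (adjusted p = 0.000427) and -0.98 ± 0.13 (adjusted p = 0.00101). RFC3 read 261.3 and 278.7 in mock, 271 and 257.5 with miR-638 and 115 and 127.1 with antagomiR-638, and RFC5 read 545.7 and 543.3 in mock, 460.8 and 555.9 with miR-638 and 257.7 and 280.4 with antagomiR-638. For both, mock and miR-638 arrays were close and the antagomiR-638 arrays lay below all 4 others. A second RFC3 probe gave -1.08, and another, at 14.801 units or less on all arrays, -0.23.

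RFC2 read 48.185 and 42.336 in mock, 50.894 and 47.05 with miR-638 and 20.83 and 19.117 with antagomiR-638 and was called at -0.77 ± 0.12 (adjusted p = 0.00222), with -0.27 on a dimmer probe. RFC4 read 658 and 618.4 in mock, 907.2 and 936.5 with miR-638 and 453.4 and 405.6 with antagomiR-638, so that the groups were fully separated, with miR-638 on top. Its brighter probe just missed the threshold against mock (-0.56 ± 0.12, adjusted p = 0.0108), and its second probe passed it (-0.72, adjusted p = 0.00922). RFC1, the large subunit, gave -0.26 ± 0.12 (adjusted p = 0.16). With 1 array left out, RFC3 kept its call in every fit, RFC5 lost it without mock replicate 2 or either antagomiR-638 array (adjusted p up to 0.0185), and RFC2 without any 1 of the mock or antagomiR-638 arrays (up to 0.0257).

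None of the 3 genes of replication protein A, which coats single-stranded DNA, was called against mock. RPA2 and RPA3 had lower values with antagomiR-638. RPA3 read 1119.8 and 1067.4 in mock, 1123.8 and 1390.6 with miR-638 and 635 and 739.3 with antagomiR-638, and missed the threshold narrowly (-0.66 ± 0.14, adjusted p = 0.0109). RPA2 read 616.3 and 576 in mock, 893.2 and 829.8 with miR-638 and 432.8 and 451.2 with antagomiR-638, with 3 separate groups and antagomiR-638 lowest (-0.42 ± 0.12, adjusted p = 0.0318). RPA1, the large subunit, gave -0.09 ± 0.13 (adjusted p = 0.645) on its brightest probe and -0.47 and -0.44 on 2 others, none called.

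Both genes that finish Okazaki fragments were called lower. FEN1, the flap endonuclease, read 3026.5 and 3319.6 in mock, 2538.9 and 2509.7 with miR-638 and 1623.2 and 1492.2 with antagomiR-638. The groups did not overlap, miR-638 lying between, and the difference was -1.02 ± 0.12 (adjusted p = 0.000566), with -0.98 on the second probe. LIG1, the ligase that seals the nicks, read 181.1 and 184.9 in mock, 135.3 and 147.5 with miR-638 and 106.4 and 110.8 with antagomiR-638 and differed by -0.68 ± 0.11 (adjusted p = 0.00354). FEN1 lost the call without antagomiR-638 replicate 2 (adjusted p = 0.0105), and LIG1 without any 1 of the mock or antagomiR-638 arrays (up to 0.0379).

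Of the 5 nucleotide supply genes, TK1 and RRM1 were called lower. TK1, the thymidine kinase of the salvage route, had the lowest log2 difference of the 40. It read 374.6 and 426.1 in mock, 344.2 and 326 with miR-638 and 133.3 and 141.4 with antagomiR-638, and both antagomiR-638 arrays lay below the others, by a fitted difference from mock of -1.44 ± 0.12 (adjusted p = 0.00015). RRM1, the large subunit of ribonucleotide reductase, read 3058.2 and 3299 in mock, 3480.3 and 3425.3 with miR-638 and 1933.8 and 1846.8 with antagomiR-638 and differed by -0.74 ± 0.11 (adjusted p = 0.00225). This call was lost without any 1 of the mock or antagomiR-638 arrays, with adjusted p up to 0.0255.

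The other 3 were not called against mock. TYMS, which makes thymidylate, gave -0.36 ± 0.13 (adjusted p = 0.0744), and RRM2, the small reductase subunit, -0.33 ± 0.13 (adjusted p = 0.0982). DUT, which removes dUTP, read 210.3 and 247.3 in mock, 256.9 and 250.9 with miR-638 and 172.7 and 149 with antagomiR-638. Both its antagomiR-638 arrays were the lowest, by -0.47 ± 0.13 (adjusted p = 0.0318), a second probe gave -0.45 and a near-background probe 0.05.

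**Figure D2:**
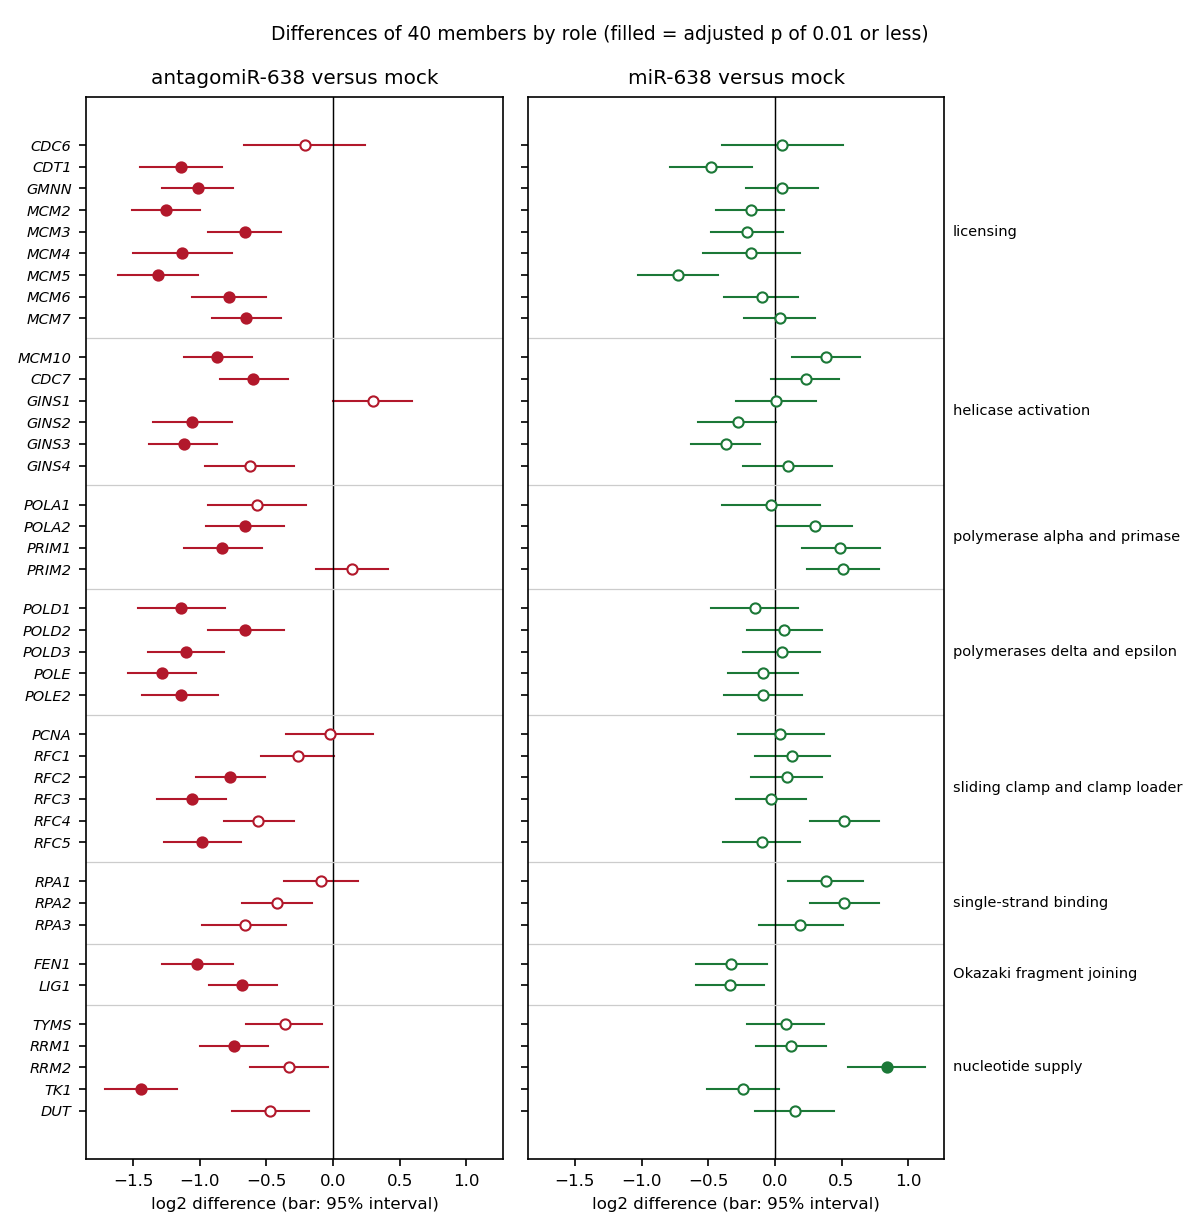
Log2 difference from mock (horizontal axes) of the 40 genes grouped by role, for antagomiR-638 (left) and miR-638 (right); points are fitted differences, bars 95% intervals, filled points an adjusted p of 0.01 or less. On the left 26 points are filled and all lie below 0, on the right RRM2 alone is filled, at 0.84.

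The miR-638 mimic left most of the set near the mock level, and the genes that deviated did so in both directions. RRM2 was the only one of the 40 called, higher, where 1.93% of all genes were called higher and 1.13% lower. Without adjustment, 8 of the 40 had a p under 0.05 on the higher side and 5 on the lower side. Over all 11501 genes, 1708 had such a p on the higher side and 1532 on the lower side. RRM2 read 221.5 and 206 in mock, 413 and 378.1 with miR-638 and 151.5 and 182.6 with antagomiR-638. Both miR-638 arrays were above both mock arrays by 0.84 ± 0.13 (adjusted p = 0.00535). The RRM2 call was lost with any 1 of the 6 arrays left out, the difference then lying between 0.78 and 0.90 with adjusted p up to 0.051.

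With miR-638 the medians of the roles had different signs, and RRM2 aside no gene passed the threshold. The median was 0.39 over the 4 polymerase alpha and primase genes and 0.38 over the 3 RPA genes. It was -0.18 over the 9 licensing genes and -0.33 over the 2 genes of Okazaki fragment joining. Over all 40 it was 0.05, against 0.0015 over all genes. The RPA median was the value of the brightest RPA1 probe, whereas the other kept RPA1 probes gave 0.05 and 0.08. MCM5 was the lowest, at -0.73 ± 0.13 (adjusted p = 0.0122), followed by CDT1 at -0.48 ± 0.14 (adjusted p = 0.061). RFC4 differed by 0.52 ± 0.12 (adjusted p = 0.0274), RPA2 by 0.52 ± 0.12 (adjusted p = 0.0258) and PRIM1 by 0.49 ± 0.13 (adjusted p = 0.0479), on the higher side. Second probes gave smaller differences, 0.43 for RFC4 (adjusted p = 0.105) and 0.24 for PRIM1 (adjusted p = 0.27). PRIM2, near background and detected on 1 of the 2 mock arrays, gave 0.51 ± 0.12 (adjusted p = 0.03), and 0.24 with an offset of 50. The groups were separate in 10 genes with miR-638 below mock and in 12 with miR-638 above, shares of all genes being 28.1% and 29.6%.

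Set against the miR-638 arrays directly, antagomiR-638 arrays were lower for 29 of the 40 genes and higher for 0, where 7.55% of all genes were called lower and 8.28% higher. The median was -0.80. In 37 genes both antagomiR-638 arrays lay below both miR-638 arrays, and in 1 above (33.6% and 34% of all genes). This comparison uses the same antagomiR-638 arrays as the one with mock, so the values below stand beside those and are no second measurement. PRIM1 had the lowest difference, -1.32 ± 0.13 (adjusted p = 0.000169), then MCM10 at -1.25 ± 0.11 (adjusted p = 0.000123), TK1 at -1.20 ± 0.12 (adjusted p = 0.000178), POLE at -1.19 ± 0.11 (adjusted p = 0.000147) and RRM2 at -1.17 ± 0.13 (adjusted p = 0.000292). RFC4 (-1.08 ± 0.12, adjusted p = 0.000285), RPA2 (-0.94 ± 0.12, adjusted p = 0.000522), RPA3 (-0.85 ± 0.14, adjusted p = 0.00242) and DUT (-0.61 ± 0.13, adjusted p = 0.00804), like RRM2, passed the threshold here and not against mock. GINS4 did so too and is counted among the 29 with -0.72 ± 0.15 (adjusted p = 0.00724), but it was near background, with 1 of its 2 antagomiR-638 values detected, and its call was lost with any 1 array left out and with an offset of 50. DUT and CDT1 (-0.66 ± 0.14, adjusted p = 0.00736) each kept the call in 1 of the 6 fits with an array left out. MCM5 (-0.58 ± 0.13, adjusted p = 0.0124), MCM3 (-0.45 ± 0.12, adjusted p = 0.0232) and LIG1 (-0.34 ± 0.11, adjusted p = 0.0574) passed it against mock and not here.

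On second probes, MCM3 was called in this comparison (-0.53, adjusted p = 0.00905) while MCM4 was not (-0.72), and the second DUT probe gave -0.53 without a call. The number of lower genes was 28 and 26 without a mock array, 18 and 20 without miR-638 replicates 1 and 2, and 13 without either antagomiR-638 array. GMNN, MCM2, MCM10, PRIM1, POLD3, POLE, POLE2, RFC3, RFC4, RRM2 and TK1 were called in each of these 6 fits. LUM, the 1 of 5 fibroblast markers that passed the filter, was called higher in this comparison (0.66). Its signal was 558.0 and 563.1 in mock, 432.5 and 439.6 with miR-638 and 688.6 and 704.2 with antagomiR-638. Its part in the result was not tested.

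**Figure D3:**
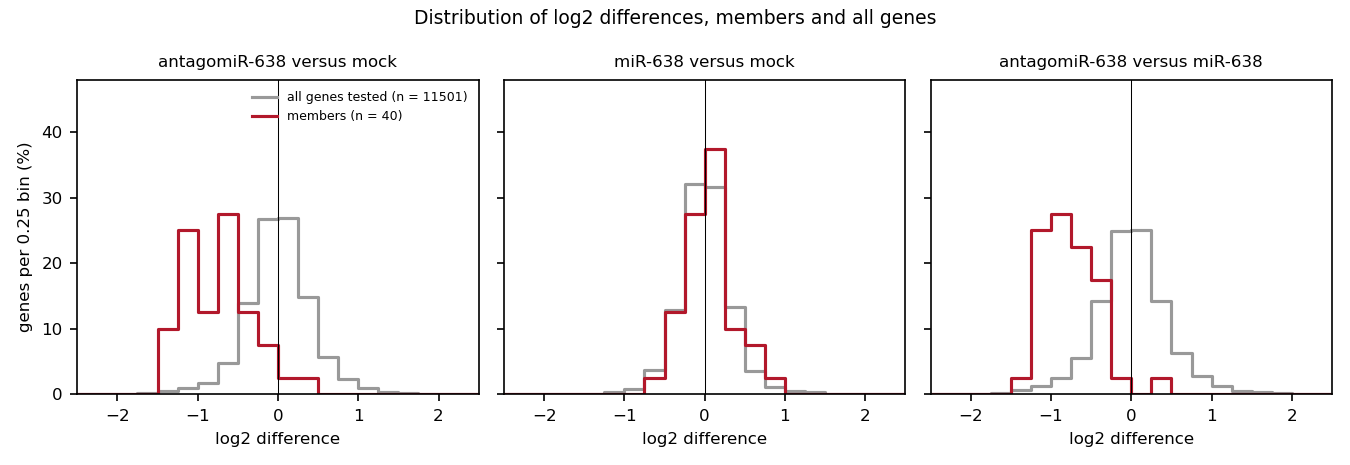
Share of genes (vertical axis, percent per bin of 0.25) by log2 difference (horizontal axis) for the 40 members and all 11501 genes tested, in the 3 comparisons, drawn over the central range of differences. The members lie to the left of all genes in both comparisons with antagomiR-638 (medians -0.71 and -0.80) and over them with miR-638 against mock (median 0.05).

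**Figure D4:**
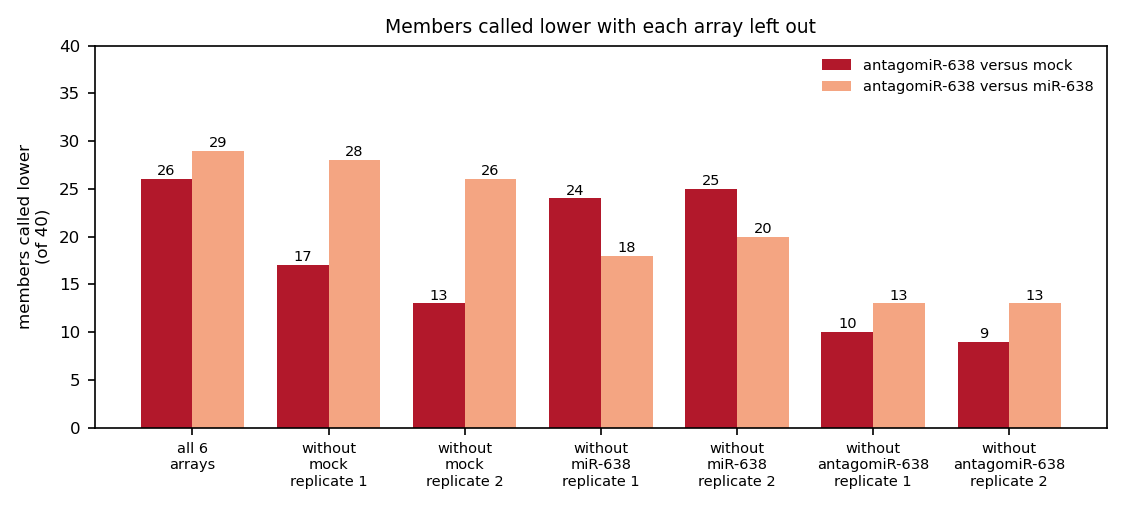
Number of the 40 genes called lower (vertical axis, from 0) with all 6 arrays and with each array left out, for antagomiR-638 against mock and against miR-638. The counts start at 26 and 29 and are lowest, at 9 and 13, when an antagomiR-638 array is left out.

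Other replication genes were counted from a list written from general knowledge, with earlier results of these data known. Of 42 with a kept probe, among them the origin recognition complex, topoisomerases and chromatin assembly factors, 18 were lower with antagomiR-638 than mock and 1 higher, with a median of -0.41. TOP2A, the topoisomerase that separates replicated strands, was the lowest of these at -1.53 ± 0.12. CDC45, the partner of GINS and the MCM ring in the active helicase, gave -1.10 ± 0.11. POLD4, the smallest subunit of polymerase delta, was the 1 called higher, at 0.76 ± 0.14, from 50.827 and 60.821 in mock to 95.736 and 114.9, against the fall of POLD1, POLD2 and POLD3. With miR-638 against mock 1 of the 42 was called, RNASEH2C, a subunit of the ribonuclease that removes ribonucleotides from DNA (-0.93 ± 0.11). Against miR-638, 24 of the 42 were lower with antagomiR-638 and 1, again POLD4, higher. Of all genes, 4.78% were called lower and 5.83% higher with antagomiR-638 against mock. The shares were 1.13% and 1.93% with miR-638 against mock, and 7.55% and 8.28% with antagomiR-638 against miR-638. They stand beside the counts of the lists below as well.

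Of 23 nucleotide enzymes outside the set with a kept probe, 4 were lower with antagomiR-638 than mock: CAD, which starts pyrimidine synthesis, SHMT1, a folate enzyme, and PAICS and GMPS, which make purines. The differences ran from -0.73 to -0.64. RRM2B, a reductase subunit that p53 induces, was higher by 1.52 ± 0.13, from 167.1 and 150.3 in mock to 460.4 and 509.5, while RRM1 fell. Against miR-638, 7 were lower and 1, RRM2B, higher. With miR-638 against mock 0 of the 23 were called by limma (without adjustment, 3 had a p under 0.05, all on the higher side). Over all 11501 genes, 1708 had such a p on the higher side.

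Among 31 E2F and G1/S regulators, 9 were lower with antagomiR-638 than mock, including the S-phase cyclin CCNA2 (-1.51 ± 0.13) and the phosphatase CDC25A (-1.42 ± 0.12). CDKN1A, the p21 inhibitor of cyclin-dependent kinases, was the only one called higher, by 1.13 ± 0.12, and the other 21 were not called. Against miR-638, 11 were lower and 2 higher. With miR-638 against mock 2 were called, E2F5 (0.76 ± 0.13) and the repressor E2F7 (0.70 ± 0.11), both higher. With antagomiR-638 E2F5 was lower than mock (-0.76 ± 0.13). Of 11 reference genes, 1 (HPRT1, which salvages purines) was called lower with antagomiR-638 against mock (-0.55 ± 0.11). Against miR-638, 2 of the 11 (HPRT1 and TBP) were called lower and 1 (TFRC) higher.

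Further gene lists moved in the same antagomiR-638 arrays. Interferon-stimulated genes were higher than mock in 16 of 18 (median 2.49), and higher in 5 of 18 with miR-638 (median 0.51). p53 target genes, a list that holds CDKN1A and RRM2B as well, were higher in 8 of 18 with antagomiR-638 and in 2 of 18 with miR-638. Of all genes, 5.83% and 1.93% were called higher, in that order. With antagomiR-638 against miR-638, interferon-stimulated genes were higher in 16 of 18. There p53 target genes were higher in 9 of 18 and lower in 2 (SESN2 and PMAIP1). The part of either response in the lower replication genes was not tested. RefSeq names pseudogenes of POLD2, PCNA, RFC3, RFC5, RPA2, RPA3, FEN1, TYMS, RRM2 and DUT, and whether probes of these genes also bind their transcripts was not tested.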

How the data were processed

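Per the labels, the authors processed the arrays with the R package lumi, whose version is not given in the sources used here. The deposited intensity values are linear, background-subtracted (26.2% lie below 0) and already quantile-normalised, since sorted columns differ by at most 0.349 units. Detection p-values, deposited beside each intensity, step by 1 in 770. The second deposited table holds the same arrays and served as an alternative.

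From these intensities, limma 3.58.1 (R 4.3.3) estimated a normexp background from the detection p-values (offset of 16), followed by quantile normalisation and log2. This model was planned for signals without background subtraction. Here it acts on noise about 0 and draws differences of dim probes toward 0. Probes were kept where both arrays of any group had a detection p under 0.05 (20145, of which 15316 carried 1 symbol, for 11501 genes), and the kept probe of highest mean stood for its gene. The model of group means used all 6 arrays (3 residual degrees of freedom, 6.31 from the prior), and its 3 differences were tested two-sided with Benjamini-Hochberg adjustment over the 20145 probes. Symbols came from the platform's probe table, and 30073 of 30112 probes were matched to RefSeq by Entrez identifier. The script was tested on simulated data.

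The 40 genes and the other lists were chosen with earlier results of these data known, so no test over a list was made. All 40 were named by role. Array values were given for the 2 genes of each role with the largest antagomiR-638 difference (3 for licensing), for genes called with miR-638, for dim genes and for genes whose probes disagreed; GMNN and the values of genes outside the 40 were added afterwards. Alternatives covered background, offset, normalisation, probe filter and choice, threshold, spread model, array weights, replicate block and each array left out. With 2 arrays per group, the number of arrays limits the precision.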

Additional observations from a re-analysis of the deposited data

How the results depend on the processing

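The direction held while the counts did not. The median of the 40 genes stayed between -0.76 and -0.64 for antagomiR-638 against mock and between -0.84 and -0.68 against miR-638 under the alternatives that kept all 40. With probes detected on all arrays, which left 36 of them, it was -0.77 and -0.85. Without moderation of the spread, the per-probe linear model called 0 genes in any comparison, among the 40, the other replication genes or all genes. Without adjustment, this model gave 31 of the 40 a p under 0.05 on the lower side for antagomiR-638 against mock. Against miR-638 it was 36, and for miR-638 against mock 8 higher and 6 lower. Over all genes, 3702, 4099 and 2810 had such a p on either side, in that order.

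For miR-638 against mock, 4 of the 40 genes were called with an offset of 50 and 4 with an intensity trend, 2 of the 36 left with probes detected on all arrays, 6 at an adjusted p of 0.05, and 0 with no probe filter or with only the arrays compared. Of all genes tested, 6.35% were called with an offset of 50, 6.41% with an intensity trend, 4.68% of 10067 with probes detected on all arrays, 0.644% of 20046 genes with no probe filter, 11.1% at 0.05 and 1.28% with only the arrays compared, against 3.06% of 11501. Of the other replication genes, 3 were called with an offset of 50, 3 with an intensity trend and 4 at 0.05, against 1. For antagomiR-638 against mock, all genes called were 3.82% of 20046 with no probe filter and 23.6% at 0.05, against 10.6%, and the other replication genes 9 with no probe filter, against 19. Against miR-638, 29.3% of all genes were called at 0.05, against 15.8%. At an adjusted p of 0.05 the fit was the same and only the threshold differed. The cause of the other changes was not tested.

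Replicate numbers did not pair the arrays: the deviations of same-numbered arrays from their group means correlated at -0.0686 to -0.0539. With the replicate number as a block, 22 of the 40 were called for antagomiR-638 against mock, 26 against miR-638 and 0 for miR-638 against mock, where 8.28%, 12.7% and 1.69% of all genes were called, in that order.

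With 1 array left out, 9 to 25 of the 40 were called for antagomiR-638 against mock, 13 to 28 against miR-638 and 0 to 0 for miR-638 against mock. Of all genes tested, 2.25% to 8.51%, 4.37% to 13.7% and 0.228% to 1.19% were called, and for the other replication genes 7 to 18, 8 to 24 and 0 to 1. 

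Signs of some uncalled differences turned. GINS1 for miR-638 against mock was -0.01 with cyclic loess. With the median over probes PCNA was 0.07 for antagomiR-638 against mock and 0.00 against miR-638, and RFC3 was 0.25 for miR-638 against mock. With 1 array left out, differences for antagomiR-638 against mock ranged from -0.56 to 0.14 for CDC6, -0.19 to 0.14 for PCNA and -0.22 to 0.03 for RPA1, and against miR-638 from -0.61 to 0.09 for CDC6 and -0.18 to 0.05 for PCNA. For miR-638 against mock they ranged from -0.04 to 0.14 for CDC6, -0.11 to 0.13 for GINS1, -0.02 to 0.21 for GINS4, -0.04 to 0.13 for GMNN, -0.41 to 0.06 for MCM4, -0.04 to 0.11 for MCM7, -0.12 to 0.21 for PCNA, -0.23 to 0.18 for POLA1, -0.30 to 0.00 for POLD1, -0.04 to 0.18 for POLD2, -0.18 to 0.01 for POLE2, -0.07 to 0.01 for RFC3, -0.23 to 0.03 for RFC5 and -0.04 to 0.20 for TYMS.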
